A study of Mus musculus with 4 samples.

Results

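The genes described here encode proteins that carry out or regulate the splicing of nuclear RNA. These are the heterogeneous nuclear ribonucleoproteins (hnRNPs), the serine- and arginine-rich SR proteins and proteins of the spliceosomal small nuclear ribonucleoproteins (snRNPs). The others are the subunits of splicing factors SF3a and SF3b and the SR-like factor Rbm39. The genes were taken by a rule on gene symbols from the 18193 genes to which the platform annotation gives probe sets of their own. A probe set is a group of short oligonucleotides on the array that is read as 1 value. The symbols held 47 genes, read by 147 of the 45101 probe sets: 18 hnRNP genes with 54 probe sets, 10 SR genes with 33, 9 snRNP genes with 18, 9 SF3 genes with 30, and Rbm39 with 12. A further 16 probe sets listed with several symbols, 1 of which fitted, were left out, and Hnrnpa2b1, whose symbol has another form, was counted with the other splicing regulators below.

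The study put total RNA from the mouse central nervous system (brain, hindbrain and spinal cord) on 4 Affymetrix arrays. For 2 of them the RNA was turned into cDNA by Nugen amplification, and for the other 2 into antisense RNA (aRNA) by T7-based amplification, with an array 0 and an array 1 in each preparation. The labels give no strain, sex, age or treatment and do not explain the numbers. Whether animals or RNA were shared between arrays or preparations is not stated. The p-values therefore measure the spread between these arrays, and its technical and biological parts were not told apart.

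The markers of neurons (7 of 7), astrocytes (5 of 5), oligodendrocytes (5 of 5) and microglia (6 of 6) lay above the background level on all 4 arrays, while 1 of 4 Hox genes of hindbrain and spinal cord and 1 of 2 forebrain genes did. The median of the 6 microglial markers was 10.65 and 10.23 on the arrays numbered 0 and 12.91 and 13.41 on those numbered 1 (cDNA, then aRNA; log2 scale), and its part in the results below was not tested. Array 0 of the aRNA preparation stood apart in sex-linked RNA. The X-inactivation RNA Xist read 8.55 there against 11.94, 12.51 and 15.44 on both cDNA arrays and aRNA array 1. The Y-linked gene Eif2s3y read 13.12 against 7.92, 4.75 and 6.79. In both preparations Xist read higher and Eif2s3y lower on array 1 than on array 0, by less with cDNA. The Eif2s3y reading of 7.92 on cDNA array 0 lay near the background level of that array (7.83). The 2 aRNA arrays thus differed from each other in sex-linked RNA, and the part of this in the comparison of preparations was not tested.

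Pre-mRNA splicing is carried out by snRNPs, each a small nuclear RNA with proteins of its own and most with a ring of Sm proteins. The U1 particle recognises the start of the intron, and the U2 particle, which holds SF3a and SF3b, binds the branch site. SR proteins mostly promote the use of an exon and hnRNPs often oppose it, and neural tissue is known for extensive alternative splicing. Many of these genes make several transcripts that differ in exons or in their ends, so the probe sets of 1 gene can read different stretches of its RNA.

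Arrays of 1 preparation were close to each other and less close to those of the other preparation. Where array values are listed, array 0 comes before array 1. Values are log2(intensity + 16) throughout, and a difference is the mean of the cDNA arrays minus the mean of the aRNA arrays on that scale, which understates the fold of dim probe sets. Of the 147 probe sets, 135 passed the filter on low values and were tested, with at least 1 for each of the 47 genes. The 12 left out ranged from 4.47 to 9.27, and each lay under the background level on at least 1 array. Over the 135, Pearson's r was 0.95 within cDNA and 0.97 within aRNA, but between 0.64 and 0.67 across the preparations; over all 22519 probe sets tested it was 0.94, 0.96, and 0.72 to 0.73. These correlations run over probe sets, which share arrays and differ in affinity, and are descriptions. The median absolute difference was 0.36 within cDNA, 0.28 within aRNA and 0.93 between the preparations, against 0.37, 0.33 and 0.88 over all probe sets tested.

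**Figure D1:**
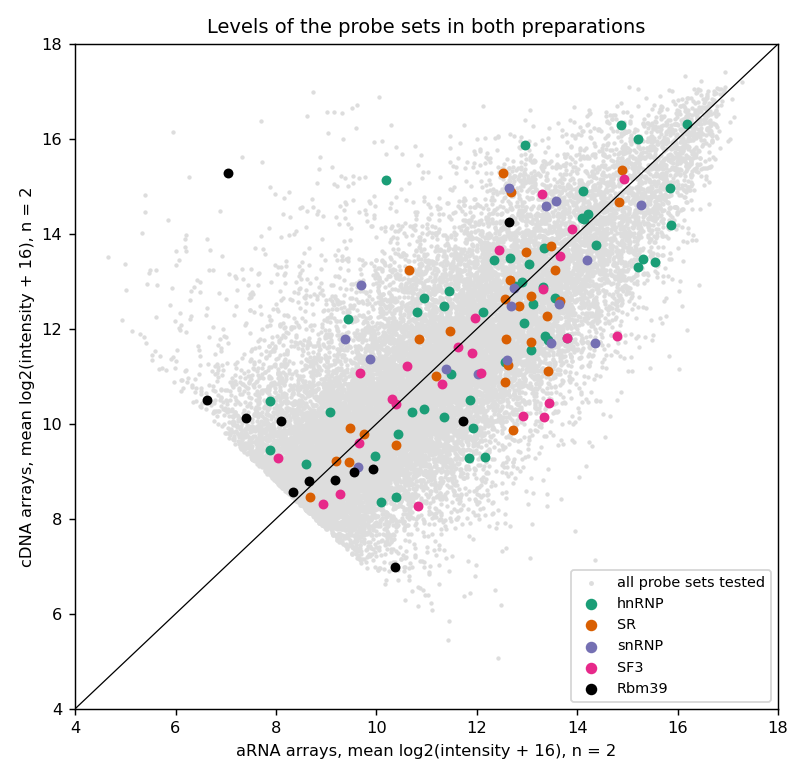
Mean log2(intensity + 16) of each probe set on the 2 cDNA arrays (vertical axis) against the 2 aRNA arrays (horizontal axis), with the 135 tested splicing factor and hnRNP probe sets in colour by family over all 22519 tested ones in grey. The line marks equal values; the Rbm39 probe set near 15.29 on cDNA and 7.05 on aRNA lies farthest from it, and the other coloured points lie on both sides.

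Splicing factor and hnRNP probe sets differed between the preparations in both directions. Limma's test (Benjamini-Hochberg adjusted p under 0.05 over all probe sets tested) called 32 of the 135 higher on cDNA and 43 lower, and 60 did not pass. That is 23.7% higher, where 20.2% of all probe sets tested were called higher, and 31.9% lower, where 22.9% were called lower. In either direction 55.6% were called, against 43.2%. With each array left out in turn, 18 of the 32 and 27 of the 43 were called every time. Among brighter probe sets, with the filter at the 75th percentile, the shares were 63.2% of 95 members and 57.3% of all. The arrays of the 2 preparations did not overlap at 74.1% of the members and 73.8% of all probe sets tested. The median difference was −0.21, against −0.11 over all probe sets tested; with each array centred on its median both moved down, to −0.36 and −0.25.

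By family, 14 of 52 tested hnRNP probe sets were called higher and 19 lower (median −0.44), 4 and 8 of 29 for the SR genes (−0.18), 6 and 7 of 17 for the snRNP genes (−0.24), 3 and 7 of 25 for the SF3 genes (−0.11) and 5 and 2 of 12 for Rbm39 (0.19). The share called was thus highest for snRNP (76.5%) and hnRNP probe sets (63.5%) and under the 43.2% of all probe sets for SR (41.4%) and SF3 probe sets (40.0%); the differences between families were not tested. Leaving out cDNA array 0, aRNA array 0 or aRNA array 1 took the count of lower snRNP probe sets from 7 to 4. At probe sets named _x_at, whose oligonucleotides may also read other transcripts, 5 of 17 members were called (29.4%, median absolute difference 0.47), against 49.5% and 0.91 for such probe sets of all genes.

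**Figure D2:**
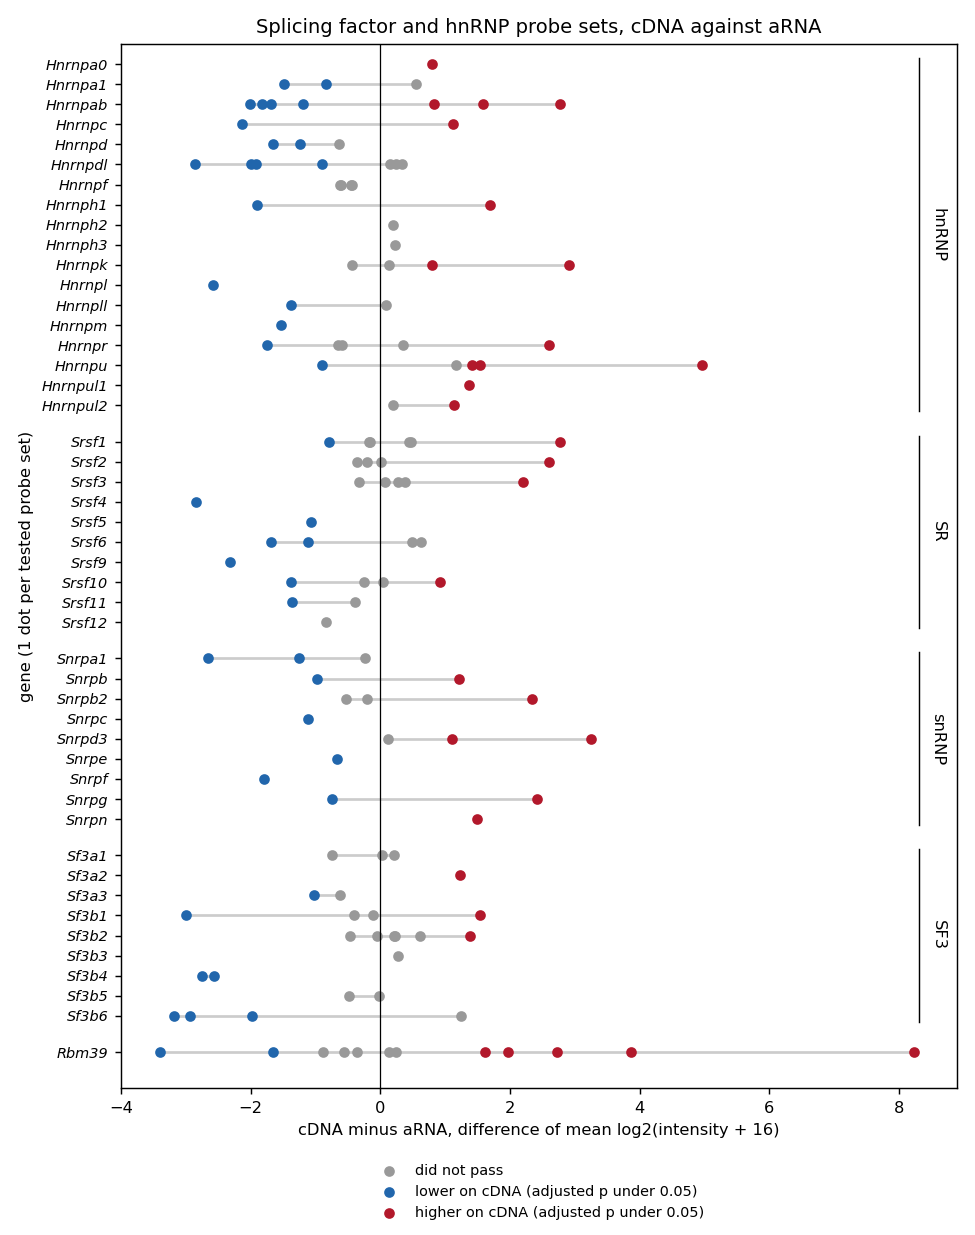
Difference between the preparations (cDNA minus aRNA, log2 scale, horizontal axis) of every tested probe set, 1 row per gene and grouped by family; colours give the limma call and grey lines join the probe sets of a gene. Rbm39 runs from −3.40 to 8.23, and 11 genes have both a red and a blue dot.

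Rbm39, an SR-like partner of the splicing factor U2AF that aryl sulfonamide drugs mark for degradation, had probe sets at the far end of both directions. Its probe set 1420982_at read 15.43 and 15.15 with cDNA and 7.21 and 6.89 with aRNA. Both cDNA arrays lay far above background, aRNA array 0 just above it and aRNA array 1 under it. The cDNA level was at least 275.5-fold higher (limma adjusted p = 4.34e-06). In contrast, 1443988_at read 5.52 and 8.44 with cDNA and 10.54 and 10.21 with aRNA. It lay under background on cDNA array 0 and was at least 4.719-fold lower with cDNA (limma adjusted p = 0.0122).

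The other Rbm39 probe sets filled the space between. Of them, 1438397_a_at was at least 7.47-fold higher (under background on aRNA array 1, where it read 5.21 against 8.06 on aRNA array 0), and 1456386_at, 1438398_at and 1426671_a_at differed by 2.72, 1.96 and 1.61. Those 4 were called higher and 1438420_at lower, with −1.65 ± 0.35 (SE; limma adjusted p = 0.00517). The remaining 5 lay between −0.89 and 0.24 and did not pass. Of these, 1446147_at was the least even within a preparation, with 10.68 and 7.43 with cDNA and 9.98 and 9.90 with aRNA. The array pairs did not overlap at 8 of the 12 probe sets (66.7%), against 73.8% of all probe sets tested. Without aRNA array 1, 1438397_a_at gave 2.45, and it and 1456386_at were under the filter without either cDNA array. Without aRNA array 0, 1438398_at (adjusted p = 0.0542) and 1438420_at (0.0558) did not pass, and 1443988_at was under the filter without either aRNA array, with −4.86 without cDNA array 1 and −1.94 without cDNA array 0. The mean of all 12 probe sets differed by 0.99 ± 0.38 (SE) and did not pass (limma adjusted p = 0.069). At 11.63 over 12 probe sets, the range of Rbm39 was the widest of the 5034 genes with 2 or more tested probe sets. Each end of it includes 1 reading under background, and ranges were wider in genes with more probe sets. A gene with 4 tested probe sets reached 11.50.

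**Figure D3:**
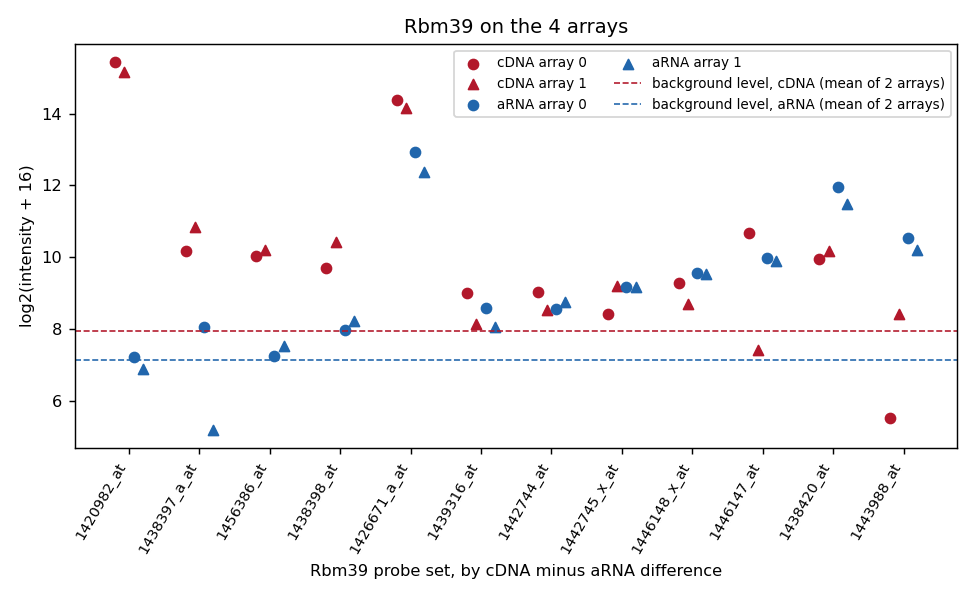
The 12 Rbm39 probe sets (horizontal axis, from the highest to the lowest difference) on the 4 arrays, as log2(intensity + 16); red is cDNA, blue is aRNA, circles are array 0 and triangles array 1, and dashed lines are the background level of each preparation (mean of its 2 arrays). On the left both red marks stand above both blue ones, by up to 8.23, and at the right end they stand below, at −3.40.

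Among the hnRNP genes, Hnrnpu had the largest difference. Hnrnpu encodes scaffold attachment factor A, which binds RNA and the nuclear scaffold. Its probe set 1434391_at read 14.99 and 15.30 with cDNA and 10.15 and 10.22 with aRNA, 31.0-fold higher on cDNA (difference 4.96 ± 0.26, SE; limma adjusted p = 8.66e-06). Both cDNA arrays stood well above both aRNA arrays. Of the other 4 tested probe sets, 2 were called higher, 1 did not pass (1.17) and 1423051_at was called lower (−0.90, limma adjusted p = 0.0164), with 12.57 and 12.73 with cDNA and 13.68 and 13.43 with aRNA. That call did not pass without cDNA array 0 (adjusted p = 0.0691) or aRNA array 0 (0.0852).

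Hnrnpk, a KH-domain protein that binds cytidine-rich RNA, was 7.51-fold higher on cDNA at 1448176_a_at, with 15.80 and 15.93 with cDNA against 12.99 and 12.92 with aRNA (limma adjusted p = 2.96e-05). Its probe set 1460547_a_at, the hnRNP probe set with the highest mean over the arrays, read 16.14, 16.50, 15.97 and 16.40 in the same order. There the preparations differed by 0.13 and overlapped. Of its other probe sets, 1423684_at was called higher (0.80; adjusted p = 0.0612 without cDNA array 1), and 1454692_x_at did not pass (−0.44).

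The A/B-type gene Hnrnpab had 3 of 7 probe sets called higher and 4 lower. At 1431349_at it read 12.48 and 11.92 with cDNA and 9.15 and 9.72 with aRNA (difference 2.76 ± 0.38, SE; limma adjusted p = 0.000625). At 1448144_at it read 9.77 and 10.05 with cDNA and 12.13 and 11.73 with aRNA (−2.01 ± 0.34, SE; limma adjusted p = 0.00186). The other 5 passed as well, but 3 of them not with every array left out in turn: 1426114_at (−1.19, adjusted p up to 0.116), 1453849_s_at (0.82, up to 0.117) and 1459880_at (1.58, up to 0.13, and under the filter without cDNA array 0). Only cDNA array 1 could be left out with 1426114_at and 1459880_at still called, and only aRNA array 0 with 1453849_s_at. The mean of the 7 was −0.22 and did not pass (limma adjusted p = 0.487).

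Other hnRNP genes were also called both ways. Hnrnpc, which binds uridine-rich stretches of nascent transcripts, read 13.20 and 13.63 with cDNA and 15.64 and 15.46 with aRNA at 1460240_a_at (−2.14, limma adjusted p = 0.000174). At 1418693_at it read 13.30 and 13.61 with cDNA and 12.38 and 12.29 with aRNA (1.12, limma adjusted p = 0.0071). The aRNA arrays lay above the cDNA arrays at the first and below them at the second, with no overlap at either. Hnrnph1, which binds guanosine-rich RNA, gave −1.90 at 1415872_at and 1.69 at 1437267_x_at, the latter not past the threshold without cDNA array 1 (0.99, adjusted p = 0.0612). Hnrnpr gave −1.75 at 1438807_at and 2.60 at 1452030_a_at. Each lay under background on 1 array of the lower side, and they were at least 3.14-fold lower and at least 5.469-fold higher on cDNA. The first did not pass without cDNA array 1 (adjusted p = 0.078) or aRNA array 0 (0.204), nor the second without aRNA array 1 (1.57, adjusted p = 0.0558).

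Toward aRNA, Hnrnpdl, a relative of the AU-rich element binding protein Hnrnpd, differed most. At 1428224_at it read 9.07 and 9.54 with cDNA and 12.09 and 12.25 with aRNA, 7.28-fold lower on cDNA (limma adjusted p = 0.00037). Of its 7 probe sets 4 were called lower and 3 did not pass, from 0.14 to 0.33. The call of 1428225_s_at was lost without aRNA array 0 (adjusted p = 0.0878). Hnrnpd itself was called lower at 2 of 3 (−1.65 and −1.24, the latter not without cDNA array 0, adjusted p = 0.0737, or aRNA array 1, 0.0953). Hnrnpl, which binds CA repeats, was 5.95-fold lower at its only tested probe set, 1424101_at, with 8.98 and 9.58 with cDNA and 11.90 and 11.80 with aRNA (limma adjusted p = 0.000814). Hnrnpm was called lower at its only probe set (−1.53) and Hnrnpll, a relative of Hnrnpl, at 1 of 2 (−1.37; adjusted p = 0.0702 without aRNA array 0). Hnrnpa1, a well-known repressor of exon inclusion, was called lower at 2 of 3 (−1.49 and −0.83), the second not with any 1 array left out (adjusted p from 0.0527 to 0.128).

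Hnrnpul1 was called higher at its only probe set (1.36), as was Hnrnpa0 (0.79), which did not pass without cDNA array 1 (adjusted p = 0.0965) or aRNA array 0 (0.0914). Hnrnpul2 was called higher at 1 of 2 (1.14; adjusted p = 0.0599 without aRNA array 1). Hnrnpf, Hnrnph2 and Hnrnph3 had no called probe set, and the 4 of Hnrnpf lay close together, from −0.62 to −0.43.

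Among the SR genes, Srsf1 had the largest difference upward and Srsf4 downward. Srsf1, the SR protein first isolated as a factor in constitutive and alternative splicing, read 15.40 and 15.18 with cDNA and 12.99 and 12.06 with aRNA at 1453722_s_at, 6.79-fold higher on cDNA (limma adjusted p = 0.000227). The other 5 tested probe sets of Srsf1 lay between −0.79 and 0.47. At 1434972_x_at, the SR probe set with the highest mean, the values were 15.17, 15.54, 14.90 and 14.87 and the difference of 0.47 did not pass (limma adjusted p = 0.0891). At 1428100_at the call was lower (−0.79, limma adjusted p = 0.043), but it was lost with any 1 of the 4 arrays left out (adjusted p from 0.0755 to 0.195).

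Srsf2 and Srsf3 each had 1 probe set called higher and the rest not called. Srsf2, a component of nuclear speckles, read 13.60 and 12.89 with cDNA and 10.41 and 10.90 with aRNA at 1452439_s_at (2.59, limma adjusted p = 0.00051), and its other 3 lay between −0.37 and 0.02. Srsf3 read 14.72 and 15.03 with cDNA and 12.79 and 12.56 with aRNA at 1416150_a_at (2.20, limma adjusted p = 0.000178), and its other 4 lay between −0.32 and 0.37. For both genes 1 probe set stood alone and the rest did not pass. Srsf10, a splicing repressor when it loses its phosphates, was called lower at 1423982_at (−1.38) and higher at 1449121_at (0.93). The first was lost without aRNA array 0 (adjusted p = 0.0503) and the second with any 1 of the 4 arrays left out (0.0662 to 0.115).

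Of the 4 SR genes with 1 tested probe set, 3 were called lower on cDNA and none higher. Srsf4 read 9.95 and 9.81 with cDNA and 12.55 and 12.88 with aRNA at 1448778_at, 7.16-fold lower on cDNA (limma adjusted p = 0.000224). Srsf9 read 10.87 and 11.33 with cDNA and 13.35 and 13.50 with aRNA at 1417727_at (−2.32, limma adjusted p = 0.000364), and Srsf5 differed by −1.07. Neither gene's arrays overlapped between the preparations, and with no second probe set none of these differences can be set against another stretch of the transcript. Srsf12 did not pass (−0.84). Srsf6 was called lower at 2 of 4 (−1.69 and −1.12, the others 0.49 and 0.63) and Srsf11 at 1 of 2 (−1.36).

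In the snRNP family, the Sm ring proteins did not share a direction. Snrpd3 was called higher at 2 of 3 probe sets, and at 1422885_at it read 12.91 and 12.96 with cDNA and 10.11 and 9.27 with aRNA, 9.46-fold higher on cDNA (limma adjusted p = 0.000231). Snrpg read 11.84 and 11.75 with cDNA and 9.66 and 9.09 with aRNA at 1448357_at (2.42, limma adjusted p = 0.00105), but 13.44 and 13.44 with cDNA and 14.06 and 14.33 with aRNA at 1448358_s_at (−0.75, limma adjusted p = 0.0237). Snrpb was divided in the same way, with 1.21 at 1437193_s_at and −0.98 at 1419260_a_at. The smaller, lower call of each was the weaker: that of Snrpg was lost without cDNA array 0, cDNA array 1 or aRNA array 1 (adjusted p from 0.077 to 0.116) and that of Snrpb without cDNA array 0 or either aRNA array (0.0843 to 0.128).

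Snrpf was lower on cDNA at its only probe set, 1428672_at, with 11.31 and 12.08 with cDNA and 13.83 and 13.13 with aRNA (−1.79, limma adjusted p = 0.00373). Snrpe, the snRNP gene with the brightest probe set, gave −0.66 at 1451294_s_at (limma adjusted p = 0.0441), which did not pass without cDNA array 0 (0.225) or aRNA array 0 (0.223). Snrpn, an imprinted gene for the Sm protein of neurons, was called higher at its only probe set of a single symbol (1.49, limma adjusted p = 0.0221), but not without cDNA array 1 (0.079) or aRNA array 1 (0.124).

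The particle-specific proteins were divided as well. Snrpa1, of the U2 particle, read 11.92 and 11.48 with cDNA and 14.31 and 14.41 with aRNA at 1417351_a_at (−2.66, limma adjusted p = 0.000125) and was called lower at 2 of 3 probe sets. The second, 1417352_s_at (−1.25), passed with all arrays and without cDNA array 0, but not without cDNA array 1 (−0.54, adjusted p = 0.237), aRNA array 0 (0.11) or aRNA array 1 (0.0637). Snrpb2, its partner in the U2 particle, read 14.85 and 15.09 with cDNA and 13.05 and 12.22 with aRNA at 1426613_a_at (2.33, limma adjusted p = 0.000408) and did not pass at its other 2 (−0.53 and −0.21). Thus the largest differences of the 2 partner proteins ran in opposite directions. Snrpc, of the U1 particle, was lower by −1.11 (limma adjusted p = 0.00928).

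Among SF3 genes with several tested probe sets, Sf3b4 and Sf3b6 had the highest share of them called in 1 direction. Sf3b4, which contacts the pre-mRNA near the branch site, was called lower at both of its probe sets, the only gene here with 2 or more tested probe sets that were all called the same way. At 1424619_at it read 10.20 and 10.12 with cDNA and 12.58 and 13.25 with aRNA, 6.74-fold lower on cDNA, and 1436784_x_at differed by −2.57 (limma adjusted p = 0.00034 and 0.00176). Sf3b6, whose protein sits at the branch-point adenosine, was called lower at 3 of 4 probe sets, from −3.18 to −1.98, and 1435508_x_at gave 1.24 and did not pass. At 1436681_x_at it read 10.07 and 10.22 with cDNA and 13.53 and 13.13 with aRNA, 9.09-fold lower on cDNA (limma adjusted p = 0.000108).

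Sf3b1, the large scaffold subunit of SF3b, was called both ways. It read 10.24 and 10.63 with cDNA and 13.54 and 13.32 with aRNA at 1418562_at (−2.99 ± 0.30, SE; limma adjusted p = 0.000132), and 14.45 and 15.22 with cDNA and 13.31 and 13.29 with aRNA at 1440818_s_at (1.54 ± 0.27, SE; limma adjusted p = 0.00232). Its other 2 probe sets lay between these, at −0.11 and −0.40, and did not pass. Sf3b2 had 1 of 6 probe sets called, higher, at 1456040_at (1.39, limma adjusted p = 0.0148; 0.0683 without aRNA array 1). Its brightest, 1438637_x_at, gave 0.22. Sf3a2 was called higher at its tested probe set (1.23, limma adjusted p = 0.0268), but not without cDNA array 1 (0.91, adjusted p = 0.126) or aRNA array 0 (0.71, adjusted p = 0.127). Sf3a3 was called lower at 1 of 2 (−1.02, limma adjusted p = 0.0479), but not without cDNA array 1 (−0.60, adjusted p = 0.222), aRNA array 0 (0.206) or aRNA array 1 (0.059), and Sf3a1, Sf3b3 and Sf3b5 had no called probe set.

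The probe sets of a gene often disagreed, in these families and on the whole array. Of 31 genes with 2 or more tested probe sets, 22 (71.0%) had differences on both sides of 0, against 55.2% of all 5034 such genes. By number of tested probe sets the shares were 50.0% for members with 2 and 50.0% for members with 3, against 44.4% and 68.0% of all genes, and 6 of 7 members with 4 and 8 of 8 with 5 or more, against 76.8% and 87.0%. Several probe sets were called for 20 genes, and 11 of these (55.0%) had calls in opposite directions, where 45.4% of 1688 such genes on the whole array did. The 11 were Hnrnpab, Hnrnpc, Hnrnph1, Hnrnpr, Hnrnpu, Srsf1, Srsf10, Snrpb, Snrpg, Sf3b1 and Rbm39. The count was 6 without cDNA array 0, 7 without cDNA array 1, 5 without aRNA array 0 and 6 without aRNA array 1. Of the 11 genes, 3, Hnrnpab, Hnrnpc and Sf3b1, kept calls in both directions whichever array was left out. It was also 6 when _x_at and _s_at probe sets, which may read more than 1 transcript, were left out.

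The range between the highest and the lowest difference of a gene had a median of 1.21 for the 10 members with 2 tested probe sets, 2.23 for the 6 with 3, 2.96 for the 7 with 4 and 3.95 for the 8 with 5 or more. Over all genes it was 1.13, 1.99, 2.56 and 3.12. The differences between members and all genes were not tested. For comparison, the arrays of a preparation differed at these probe sets by 0.36 and 0.28 in the median. Hnrnpf (0.19 over 4 probe sets) and Sf3b4 (0.18 over 2) had the narrowest ranges of their families, and Hnrnpu (5.86 over 5) had the widest after Rbm39.

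**Figure D4:**
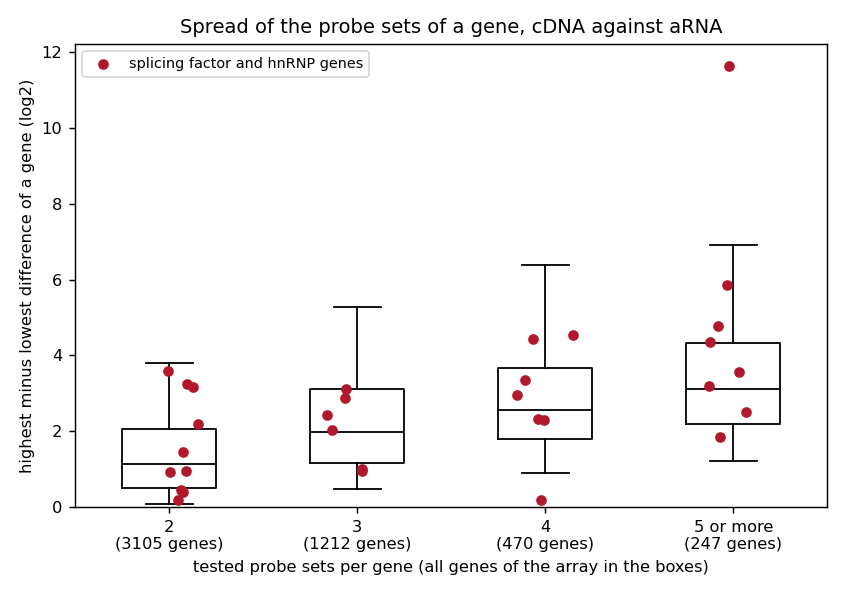
Range of the differences within a gene (highest minus lowest cDNA minus aRNA difference, log2 scale) by its number of tested probe sets. Boxes give the quartiles and whiskers the 5th to 95th percentile over all genes; red dots are the 31 splicing factor and hnRNP genes, all within the whiskers but Rbm39, above them at 11.63, and Hnrnpf, below them at 0.19.

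The annotation lists some probe sets of a gene with the same sequence record. Which stretch of a transcript each of them reads is not known here. Among the members 25 such groups of tested probe sets, in 20 genes, gave 37 pairs, of which 25 (67.6%) had differences of the same sign. Of 141 pairs of a gene with different records, 62 (44.0%) had the same sign. Pairs with a probe set that had no listed record, all those of Hnrnpf among them, were in neither count. Of all 238 pairs of the members, 48.7% had the same sign. Over all genes the shares were 57.9% of 2971 pairs and 54.7% of 7450. Pairs of 1 gene share probe sets, so these shares are descriptions, and the contrast between the kinds of pair was not tested. Leaving out Rbm39, they were 63.6% and 45.0% for the members.

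Within a record the agreement ranged widely. The 3 probe sets of Rbm39 that share a record were all called higher, from 1.96 to 3.87, and those of 2 Hnrnpab records were called alike within each record but oppositely between them: 0.82 and 2.76 for the first, −2.01 and −1.83 for the second. Both probe sets of Snrpd3 on 1 record were higher, and both of Sf3b6 lower. On the other side, Hnrnpc and Snrpg had opposite calls on 1 record, 3.26 and 3.17 apart. Hnrnpu had the largest gap on 1 record, 3.42, with both probe sets called higher.

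**Figure D5:**
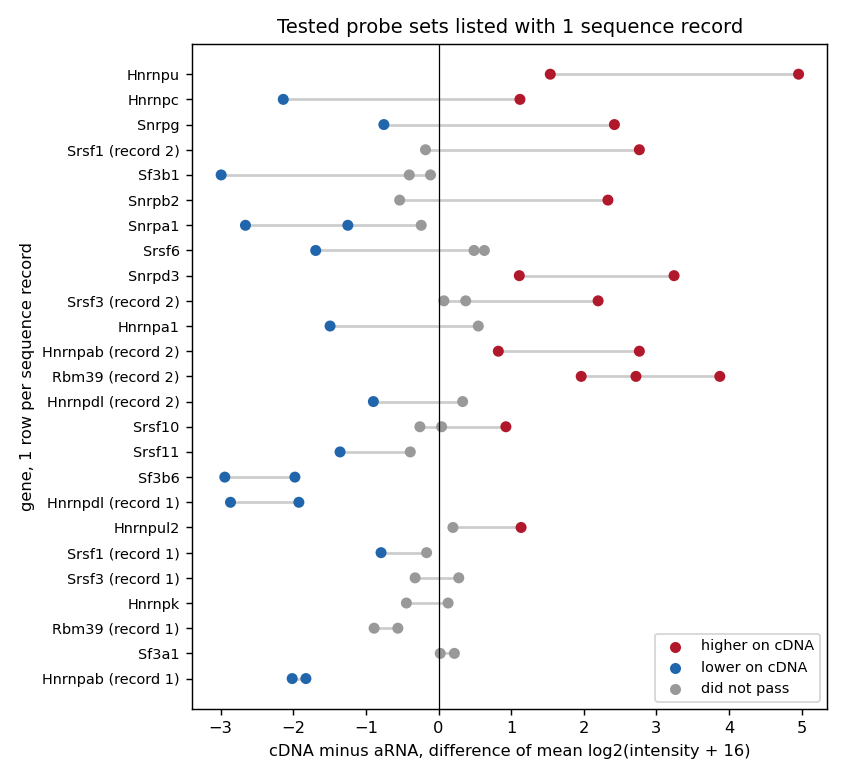
Tested probe sets that share a sequence record in the platform annotation, 1 row per record, sorted by the gap between them; the horizontal axis is the difference between the preparations (cDNA minus aRNA, log2 scale) and colours give the limma call. Gaps run from 0.19 for Hnrnpab and Sf3a1 to 3.42 for Hnrnpu, and Hnrnpc and Snrpg have a red and a blue dot on 1 row.

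With the tested probe sets of each gene averaged before the fit, which was added after the values had been seen, 9 of the 47 genes (19.1%) were called higher on cDNA and 14 (29.8%) lower, where 17.7% and 22.0% of 11945 genes were. Among genes with several tested probe sets, Hnrnpu (1.64, limma adjusted p = 0.00108), Snrpd3 (1.49, adjusted p = 0.00212), Hnrnpk (0.85, adjusted p = 0.0269), Snrpg (0.83, adjusted p = 0.0223) and Hnrnpul2 (0.67, adjusted p = 0.0355) were higher. Sf3b4 (−2.66, limma adjusted p = 0.000709), Sf3b6 (−1.72, adjusted p = 0.0015), Snrpa1 (−1.38, adjusted p = 0.0155), Hnrnpd (−1.17, adjusted p = 0.0081), Hnrnpdl (−0.99, adjusted p = 0.0109) and Srsf11 (−0.87, adjusted p = 0.019) were lower. Of the 11 genes called both ways, 9 did not pass on the average; Hnrnpu and Snrpg did. Leaving out cDNA array 1 gave 3 higher genes and leaving out aRNA array 0 gave 5. Among the genes just named, Hnrnpk (adjusted p = 0.16 without cDNA array 1, 0.0515 without aRNA array 0), Snrpg (0.0811 without cDNA array 0, 0.0693 without cDNA array 1, 0.0813 without aRNA array 1), Hnrnpul2 (0.0582 to 0.149 with any 1 array left out), Snrpa1 (0.0603 without cDNA array 1), Hnrnpdl (0.0588 without cDNA array 0) and Srsf11 (0.0844 without cDNA array 1, 0.0944 without aRNA array 1) did not pass in the fits given beside them.

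Other genes of splicing are given beside the 20.2% higher, 22.9% lower and median of −0.11 of all probe sets tested. Of 130 tested probe sets of other spliceosome proteins, 23 (17.7%) were called higher and 38 (29.2%) lower (median −0.15). Wbp11 at 1430987_s_at (6.26) and Bud31 (4.70) had the largest differences upward, and Sf1, the branch-point binding protein (at least 3.89-fold lower, under background on cDNA array 1, and under the filter without either aRNA array), and Bcas2 (−2.87) downward; Wbp11 was called the other way at its second probe set. Of 136 probe sets of other splicing regulators, Hnrnpa2b1 included, 37 (27.2%) were called each way (median −0.25). Elavl1 (3.45, with 1 of 4 probe sets called) and Tial1 (3.33, all 5 of its probe sets higher) stood at 1 end. Srrm2 (−3.72) and Tia1 (−3.27, with 2 of 4 called, both lower) stood at the other. Srrm2 was called both ways, higher at 1 of its 3 tested probe sets and lower at 1. The largest differences of Tial1 and Tia1, related proteins that bind uridine-rich introns, thus stood at opposite ends.

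Of 31 probe sets of exon junction, export and related factors, 4 (12.9%) were higher and 11 (35.5%) lower (median −0.19). Thoc1 (7.15 at 1420043_s_at, with 3 of 5 probe sets called higher) and Upf1 (5.59) were the largest upward. Acin1 (at least 11.486-fold lower, under background on cDNA array 0) and Thoc2 (−2.80) were the largest downward. Of 37 probe sets of neuronal splicing regulators, 6 (16.2%) were higher and 15 (40.5%) lower (median −0.69). Msi2 (3.26) led upward and Elavl4, an RNA-binding protein of neurons (−3.73, all 3 probe sets lower), downward, while Elavl2 gave 2.24 at 1 probe set and −4.20 at another. Counted by gene, 6 of 15 spliceosome genes with several called probe sets, 12 of 19 regulators, 0 of 4 junction factors and 2 of 4 neuronal regulators had opposite calls, where 45.4% of all such genes did. The lists' differences from all probe sets were not tested.

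Between the arrays numbered 1 and 0, no splicing factor or hnRNP probe set was called (limma with preparation in the model; 0.0622% of all probe sets were called). At an unadjusted p under 0.05 there were 7 of 135 (5.19%), against 5.86% of all. The smallest adjusted p were those of Sf3a2 at 1455546_s_at (0.84, adjusted p = 0.693), Hnrnpk at 1460547_a_at (0.39, adjusted p = 0.757) and Rbm39 at 1446147_at (−1.67, adjusted p = 0.787). Number 1 was above number 0 in both preparations for the first 2. The median difference over the members was 0.13 with cDNA and −0.09 with aRNA. With 1 residual degree of freedom, a p that misses the threshold does not show that the arrays were alike.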

How the data were processed

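The authors deposited 1 linear intensity for each probe set on each array; the sources used here do not give the software. Their 2% trimmed mean was 2500.02 on each array, so they had been scaled and were kept. Values were taken as log2(intensity + 16). The 64 control probe sets were left out, and of the other 45037 the 22519 with a mean at or above the median (8.38) were tested. The background level of an array is the 95th percentile of 27 control probe sets for Bacillus transcripts (212, 249, 123 and 126 in intensity on cDNA arrays 0 and 1 and aRNA arrays 0 and 1). Where an array of the lower side lay under it, the fold is a lower bound against the higher of the level and the array's own value. This bound allows for the background level and not for the spread between arrays. The fold with 1 array left out can be smaller than it.

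Genes came from the platform annotation. For cDNA against aRNA, limma 3.58.1 (R 4.3.3) was used (lmFit, then eBayes with an intensity trend, 2 residual degrees of freedom), Benjamini-Hochberg adjusted over all probe sets tested, and the numbers in an additive model with preparation. The fit was also run on simulated data in which far fewer probe sets changed than were called here. That run gives no error rate for the calls. With 2 arrays against 2, an exact permutation test cannot go below p = 0.333, and none was run. The members' rule reads symbols only, but the members and lists were chosen with earlier results of these data known. Named are Rbm39; per family and direction up to 3 genes with the largest difference among called probe sets whose preparations do not overlap; genes called both ways; up to 3 genes per family called alike at all tested probe sets; the brightest probe set per family; per further splicing list up to 2 genes a direction; and the 3 members with the smallest adjusted p between the numbers. Other members named were chosen after their values were seen. The arrays' numbers were not used as pairs. Figures were drawn with matplotlib 3.10.9.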

Additional observations from a re-analysis of the deposited data

Results flagged for a closer look

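Between the arrays numbered 1 and 0, the median difference of the members had opposite signs in the 2 preparations; this opposition was not tested. It was 0.128 on cDNA and −0.093 on aRNA over all members, 0.243 and −0.069 for the hnRNP genes, 0.096 and −0.118 for the SR genes, 0.054 and −0.439 for the snRNP genes, and −0.019 and 0.066 for the SF3 genes. Each rests on 1 array against 1.

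Some signal lay outside the comparisons. Of the 16 probe sets listed with several symbols, 15 were above background on all 4 arrays. Below the filter, 5 member probe sets were above background on both arrays of a preparation, with means there of 9.13 for Srsf11 at 1430077_at, 7.93 for Srsf11 at 1439095_at, 9.12 for Sf3b3 at 1430075_at, 7.65 for Sf3a2 at 1450576_a_at and 7.58 for Sf3b2 at 1453123_at.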

How the results depend on the processing

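The counts of members called higher and lower on cDNA (32 and 43) stayed within 1.5 times under each setting tried: other pseudocounts (1 and 64), no filter or a filter at the 75th percentile, quantile normalization, median centring, no intensity trend, no _x_at and _s_at probe sets, and each array left out (23 to 27 higher, 30 to 38 lower). The calls present in all 4 fits with an array left out were fewer, 18 higher and 27 lower. The count of genes called both ways (11) did not. It was 6 without _x_at and _s_at probe sets and 5 to 7 with 1 array left out; fewer probe sets or arrays enter these fits. It was between 8 and 11 under the other settings. Higher calls made up 42.7% of the members' calls, and 39.7% with median centring. Of the 46 named probe sets that were called, 29 were called whichever array was left out, and none of the 54 tested named probe sets changed direction while called. With gene averages (9 higher, 14 lower; added after the data were seen) leaving out an array gave 3 to 7 higher and 12 to 13 lower. No member was called between the numbers under any setting run.

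By their labels, arrays of the same number share only that number. The differences between number 1 and number 0 in the 2 preparations correlated at 0.04 over the probe sets tested. This does not show that such arrays share nothing else. In both preparations the microglial median and Xist were higher on number 1, and Eif2s3y was lower. With the number as a replicate block, 32 and 43 members were called and 10 genes both ways, and Srsf1 at 1428100_at was lost (adjusted p = 0.0533). Levels under background limit the size of 8 of the 135 tested differences.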
